A study of Mus musculus with 4 samples.

Results

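Immunoglobulin variable segments were described in single-cell RNA sequencing of mouse pancreatic islets. A segment counts as a member if its symbol starts with Ighv, Igkv or Iglv and if it holds at least 50 unique molecular identifiers (UMIs, counts of single captured RNA molecules) summed over all barcodes. Of 348 such rows, 31 passed: 12 of 185 heavy-chain segments (Ighv), 17 of 160 kappa segments (Igkv) and 2 of 3 lambda segments (Iglv). The table holds 32285 genes in all. Members carried 14672 of the 16014 UMIs of all variable rows (91.6%), and 176 rows were at 0. The measured total chose the members, so totals are a description and support nothing. Just inside the minimum were Igkv12-44 with 56 UMIs, and Ighv1-47 and Ighv7-1 with 55 each. Just outside it were Ighv1-19 with 49, Ighv5-17 with 45 and Ighv2-6-8 with 42.

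Per its title, the series concerns IRE1α and XBP1 in insulin-producing β-cells of NOD mice, a strain prone to autoimmune diabetes. These are a stress sensor of the endoplasmic reticulum and the transcription factor it activates. Dispersed islet cells came from 2 Xbp1{beta}-/- mice, which lose Xbp1 in their β-cells, and 2 Xbp1fl/fl mice, which carry the floxed allele. All 4 were 5 weeks old and had tamoxifen injections (10 mg/ml), the controls included. Islets were isolated with collagenase and protease, picked by hand and cultured overnight, so the immune cells are those that stayed with the islets. The labels do not name the promoter that drives Cre. Barcodes end in a number from 1 to 4, here called the library, which matches the label of no sample. No library could therefore be tied to a genotype, no genotypes were compared and no test was run. Library numbers carry no order, and each library's own value is given. Intervals are 95%, exact binomial for shares and exact Poisson for sums, and cover counting error only. Beside a value of 0 the limit given is the level of 3 counts.

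An antibody's variable domain is joined in each developing B cell from 1 variable segment, a joining segment and, for the heavy chain, a diversity segment. A mature B cell thus transcribes, as a rule, 1 productive heavy chain and 1 light chain, kappa or lambda, and its daughters inherit the same choice. When B cells become plasma cells, transcription factors such as Blimp-1 (Prdm1) and XBP1 turn them into secretory cells, and immunoglobulin becomes their most abundant transcript.

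The sequences of 9 segments that the results turn on follow, 5′ to 3′ on the coding strand. Each is the exon that encodes the variable domain, cut to its last 300 bases where it is longer, from GENCODE M21 on GRCm38 (the mm10 build of the files). These are reference sequences, and the alleles of these NOD mice were not read. Segment names, edits between segments and pseudogene labels are those of the reference too. Capitals mark the match of TANTNNTGN nearest the 3′ end, which covers the tyrosine and cysteine codons that close the framework before the third complementarity-determining region. Ighv4-1, Iglv1, Igkv10-94 and Igkv10-96 filled the largest group of plasma cells, and Igkv6-32 paired with Ighv4-1 in another library. Ighv11-2 with Igkv14-126, and Ighv12-3 with Igkv4-91, are the segment pairs known from B-1 cells that bind phosphatidylcholine.
Ighv4-1 (chr12:113948282-113948581, minus strand): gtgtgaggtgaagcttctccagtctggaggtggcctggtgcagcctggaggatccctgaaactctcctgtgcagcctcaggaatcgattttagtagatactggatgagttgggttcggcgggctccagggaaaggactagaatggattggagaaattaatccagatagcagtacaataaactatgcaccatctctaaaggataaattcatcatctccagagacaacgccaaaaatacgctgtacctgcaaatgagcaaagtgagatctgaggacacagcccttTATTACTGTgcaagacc
Iglv1 (chr16:19085017-19085316, minus strand): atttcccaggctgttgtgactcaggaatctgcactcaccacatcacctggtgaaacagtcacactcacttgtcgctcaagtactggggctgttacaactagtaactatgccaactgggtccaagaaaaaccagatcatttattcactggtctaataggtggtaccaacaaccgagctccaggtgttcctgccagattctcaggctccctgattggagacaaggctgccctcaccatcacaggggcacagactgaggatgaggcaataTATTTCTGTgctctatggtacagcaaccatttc
Igkv10-94 (chr6:68704508-68704805, minus strand): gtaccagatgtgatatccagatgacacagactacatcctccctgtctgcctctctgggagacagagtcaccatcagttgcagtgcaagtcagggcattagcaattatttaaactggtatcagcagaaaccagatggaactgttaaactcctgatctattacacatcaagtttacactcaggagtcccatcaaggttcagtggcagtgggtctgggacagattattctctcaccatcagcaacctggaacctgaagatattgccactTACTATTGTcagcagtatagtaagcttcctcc
Igkv10-96 (chr6:68631963-68632260, minus strand): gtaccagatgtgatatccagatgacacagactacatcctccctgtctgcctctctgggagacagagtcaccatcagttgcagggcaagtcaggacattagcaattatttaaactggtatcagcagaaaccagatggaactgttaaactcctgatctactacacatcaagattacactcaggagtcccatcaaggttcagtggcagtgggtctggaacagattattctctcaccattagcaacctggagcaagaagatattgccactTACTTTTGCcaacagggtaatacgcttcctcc
Igkv6-32 (chr6:70074024-70074321, minus strand): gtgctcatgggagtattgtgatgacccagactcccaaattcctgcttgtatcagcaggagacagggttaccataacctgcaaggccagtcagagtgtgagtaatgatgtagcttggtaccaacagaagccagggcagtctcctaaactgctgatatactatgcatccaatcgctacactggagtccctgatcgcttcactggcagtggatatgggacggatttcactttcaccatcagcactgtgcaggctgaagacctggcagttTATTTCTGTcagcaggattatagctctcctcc
Ighv11-2 (chr12:114048241-114048540, minus strand): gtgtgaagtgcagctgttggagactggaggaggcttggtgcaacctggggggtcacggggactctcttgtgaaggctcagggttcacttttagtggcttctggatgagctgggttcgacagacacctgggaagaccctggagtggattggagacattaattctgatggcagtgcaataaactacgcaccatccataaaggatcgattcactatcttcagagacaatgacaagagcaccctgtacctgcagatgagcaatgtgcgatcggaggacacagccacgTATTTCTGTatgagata
Igkv14-126 (chr6:67896345-67896642, plus strand): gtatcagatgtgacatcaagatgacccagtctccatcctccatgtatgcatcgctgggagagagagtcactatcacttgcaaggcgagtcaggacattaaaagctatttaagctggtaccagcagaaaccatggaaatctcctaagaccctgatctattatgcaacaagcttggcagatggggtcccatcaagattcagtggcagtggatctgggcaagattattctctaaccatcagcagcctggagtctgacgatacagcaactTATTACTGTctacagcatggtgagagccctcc
Ighv12-3 (chr12:114366521-114366820, minus strand): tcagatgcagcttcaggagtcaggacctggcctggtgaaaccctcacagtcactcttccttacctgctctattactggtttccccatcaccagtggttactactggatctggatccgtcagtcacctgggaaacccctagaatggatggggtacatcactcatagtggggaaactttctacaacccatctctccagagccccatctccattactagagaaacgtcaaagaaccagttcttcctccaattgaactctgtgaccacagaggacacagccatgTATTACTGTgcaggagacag
Igkv4-91 (chr6:68768555-68768854, minus strand): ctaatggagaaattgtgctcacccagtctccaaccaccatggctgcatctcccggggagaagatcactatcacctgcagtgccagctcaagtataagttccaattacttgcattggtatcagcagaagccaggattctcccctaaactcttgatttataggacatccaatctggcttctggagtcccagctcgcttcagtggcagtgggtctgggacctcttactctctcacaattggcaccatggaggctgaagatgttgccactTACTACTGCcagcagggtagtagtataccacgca
In each printed segment the capitals stand 8 to 25 bases before the end of the exon, and the third complementarity-determining region follows them. TANTNNTGN was found on the coding strand in the last 60 bases of 29 of 31 members (93.5%) and of 285 of the 346 distinct symbols among the 348 rows (82.4%). It was found in 5.75% of 141079 other transcripts, and on the opposite strand in 12.9%, 9.25% and 6.81%. Igkv10-94 and Igkv10-96 differed by 16 edits over 290 bases. Reads from such near copies cannot be told apart with certainty, and 17 of 31 members had another row within 15 edits. The closest were Ighv11-2 to Ighv11-1 at 4 edits and Igkv17-127 to Igkv17-121 at 6. Iglv1 to Iglv2 and Ighv2-5 to Ighv2-4 followed at 7 each. Iglv1 was 120 edits or more from every kappa row of comparable length, and Ighv4-1 was 13 edits from Ighv4-2.

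The 12 heavy members lay 239 to 2577 kb from Ighm on chromosome 12, all on the minus strand, and the 185 heavy rows lay 150.2 to 2587 kb away. The 17 kappa members lay 411 to 3116 kb from Igkc on chromosome 6. Of these, 8 were on the plus strand, against 75 of all 160 kappa rows. Of the heavy members, 7 of 12 were in the rows nearer to Ighm than the median row. Among kappa members, 6 of 17 were nearer to Igkc than the median row. 1 member, Ighv1-38, is annotated as a pseudogene, against 130 of all 348 rows.

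Barcodes numbered 4129, 7490, 4008 and 4360 in libraries 1 to 4, with medians of 11280 to 21460 UMIs. B cells (Cd79a at least 2 UMIs, Jchain under 20) numbered 733, 84, 579 and 28. Plasma cells (Jchain at least 20, Mzb1 at least 5) numbered 73, 5, 27 and 0. In libraries 1 and 3, 704 of 733 and 536 of 579 B cells held a UMI of Cd79b, a chain of the B cell receptor complex. In libraries 2 and 4 only 31 of 84 and 1 of 28 did, and 56 and 27 drew at least 10% of their UMIs from hormone genes, so the B cell label was not borne out there. Plasma markers summed to 3760, 2012 and 2497 CPM (counts scaled to 1000000 UMIs) in the plasma cells of libraries 1, 2 and 3, against 183.1 to 216.7 CPM in their B cells. Tnfrsf17, a survival receptor of plasma cells, was at 0 in the plasma cells of library 2. Of 19987 barcodes, 90 shared their sequence with another library (45 sequences), among them 1 plasma cell. The T cell genes Cd3d, Cd3e or Cd3g gave a UMI in 50 of 733 B cells and 7 of 73 plasma cells of library 1, and in 18 of 579 and 8 of 27 of library 3. Doublets were not removed, and their part in any segment mixture was not tested.

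Plasma cells held nearly all of the members' RNA. Of all member UMIs, 95.7% were in plasma cells, 3.68% in B cells and 0.607% in other cells. Plasma cells of libraries 1, 2 and 3 held 4867 (4775 to 4960), 2544 (2248 to 2867) and 4422 (4267 to 4580) CPM of member UMIs. B cells of the same libraries held 39.0 (34.4 to 44.1), 10.5 (7.10 to 15.02) and 39.3 (34.6 to 44.5) CPM. The richest single B cell gave 4 of 258, 17 of 30 and 54 of 252 of these UMIs. The B cell label was not borne out in library 2, where 56 of 84 such barcodes drew at least 10% of their UMIs from hormone genes. The 28 Cd79a-positive barcodes of library 4 held none, which allows up to 2.64 CPM. In each of the 3 libraries with both classes, plasma cells stood far above B cells, as the plot of UMIs by class shows. The rule drew on these same UMIs. Members held 10668 of 10909 variable UMIs in plasma cells and 258 of 635 in B cells of library 1. The counts were 3100 of 3382 and 252 of 538 in library 3, and 268 of 342 and 30 of 39 in library 2. The size of the gap is therefore not read as a result.

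**Figure D1:**
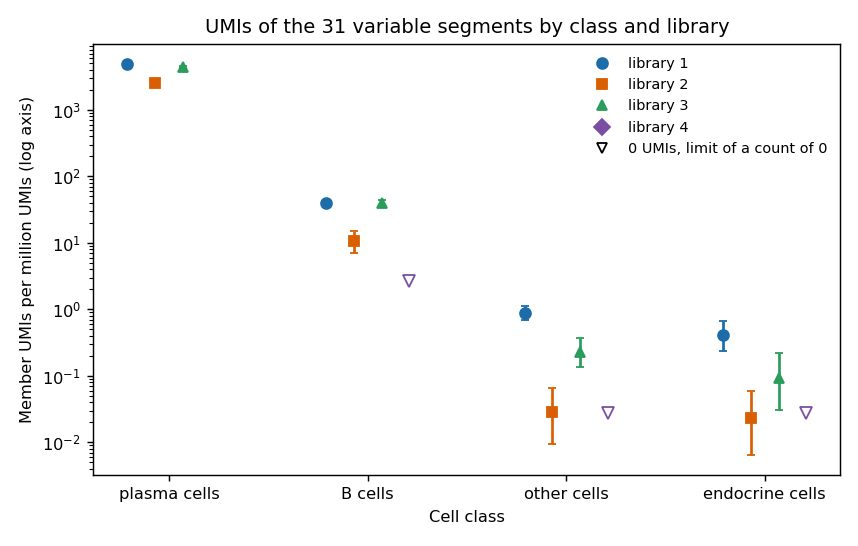
Level of the 31 members together in CPM of the class (log axis) for plasma, B, other and endocrine cells, 1 point per library, with 95% Poisson intervals; open triangles mark 0 UMIs and stand at the limit of a count of 0. Plasma cells lie at 2544 to 4867 CPM, above every B cell value, and other cells lie below 1 CPM. The rule chose the members by these same UMIs, so the size of the gap is not read as a result.

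A plasma cell held a median of 139.0, 32.0 and 86.0 member UMIs in libraries 1, 2 and 3, and a B cell a median of 0 in each. Any member UMI was seen in 186 of 733 B cells of library 1 (25.4%, 22.3 to 28.7) and in 141 of 579 of library 3 (24.4%, 20.9 to 28.1). With each cell thinned to 2000 UMIs these shares were 12.1% and 10.9%, with 39 and 12 shallower cells left out. Thinned likewise, 68 of 71 plasma cells of library 1 and 26 of 27 of library 3 held a member UMI. All plasma cells held at least 3 member UMIs. Beside the members, the heavy constant gene Ighm stood in the same order, at 48960 CPM in plasma and 1506 CPM in B cells of library 1, and at 60520 and 1557 CPM in library 3.

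Between plasma and B cells of 1 library, genes with at least 50 UMIs in both classes together were compared as ratios with 10 CPM added, without replicates. In library 1, 17 members passed that minimum and 17 of them were more than 2-fold higher in plasma cells, against 5.72% of 9551 genes. In library 3 the count was 16 of 16, against 3.0% of 9403 genes. Since the rule drew on these same UMIs, nothing is read from either count. Ighv4-1 stood at 2309 CPM in plasma and 0.756 CPM in B cells of library 1 (5061 and 5 UMIs), and at 837.2 and 0.468 CPM in library 3 (587 and 3 UMIs). In level, 9 of 31 members stood higher in B than in plasma cells in library 1 and 8 of 31 in library 3, none of them past the minimum of 50 UMIs. Igkv12-44 and Igkv17-127 did so in both. Igkv12-44 held 3.48 and 2.65 CPM in B cells against 0.456 and 0 CPM in plasma cells (1 and 0 UMIs), and Igkv17-127 held 2.27 and 1.56 CPM against 0.456 and 0 CPM (1 and 0 UMIs). Igkv12-44 was the member with the lowest plasma share of its UMIs, 3.57%, and the median over members was 94.9%.

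Many members owed their place to 1 cell. For 12 of 31, the total fell under 50 UMIs once the cell with the most was left out, and for 10 that cell held more than 50% of the UMIs. Igkv12-41 had 126 of 132 UMIs in 1 plasma cell of library 1, and Ighv1-47 had 51 of 55 in 1 plasma cell of library 3. Igkv17-127 had 89 of 116 in 1 plasma cell of library 2. At the other end, the richest cell gave 4.61% of Ighv4-1, 4.61% of Igkv10-94 and 5.68% of Iglv1. The richest cell was a plasma cell for 30 members and a B cell for Igkv12-44.

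Each plasma cell was given a heavy call if its leading Ighv row had at least 3 UMIs and 70% of the Ighv UMIs, and a light call by the same rule over Igkv and Iglv rows. A heavy call was made in 67 of 73, 4 of 5 and 24 of 27 plasma cells of libraries 1, 2 and 3. A light call was made in only 19, 3 and 14 of them, and both in 15, 2 and 12. In library 1, 51 of 70 plasma cells with heavy UMIs held more than 1 heavy row, but 1 row led clearly, while 70 of 72 with light UMIs held more than 1 light row, often without a clear lead. With Igkv rows alone, light calls numbered 31 of 73 and 21 of 27 in libraries 1 and 3.

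**Figure D2:**
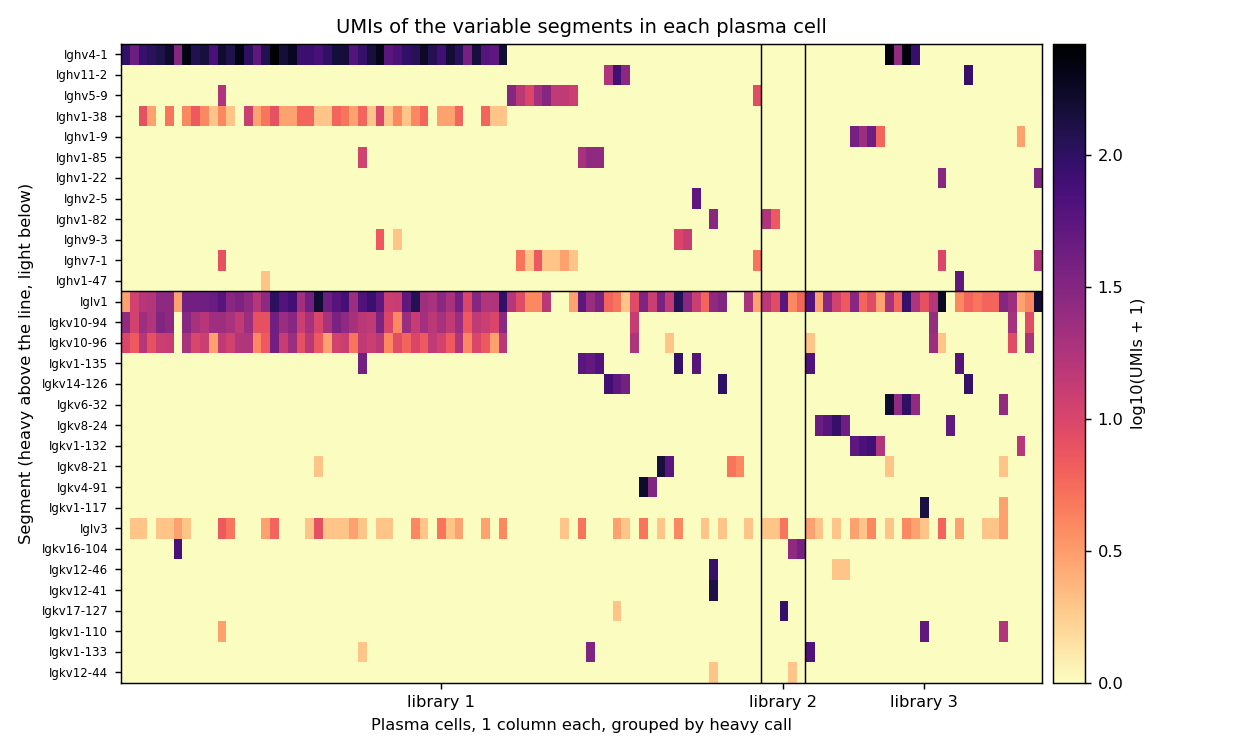
UMIs of each member (rows, heavy segments above the line and light segments below) in each of 105 plasma cells (columns, by library and heavy call), coloured by log10(UMIs + 1). The left block is the 44 Ighv4-1 cells of library 1, in which Iglv1, Igkv10-94, Igkv10-96 and Ighv1-38 appear together.

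Ighv4-1 was the most used heavy segment of library 1 and the one with the most UMIs in library 3. It was called in 44 of 73 plasma cells of library 1 (60.3%, 48.1 to 71.6), in 0 of 5 of library 2 and in 4 of 27 of library 3 (14.8%, 4.19 to 33.7). Its UMIs per called cell ran from 30 to 263 in library 1 (median 107.0) and were 239, 25, 232 and 91 in library 3. No plasma cell of library 1 outside this group held a UMI of Ighv4-1, since 44 cells held one and 44 were called. The intervals of the shares in libraries 1 and 3 do not overlap, but with 1 library each they give no test.

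The light rows beside Ighv4-1 differed between libraries. In library 1, Iglv1 was present in 44 of 44 cells (2 to 156 UMIs, median 29.5), Igkv10-94 in 43 (median 18.5) and Igkv10-96 in 43 (median 9.5). These made up 55.6%, 24.8% and 13.7% of the group's light variable UMIs. Since no row reached 70% in most cells, few had a light call. In library 3 the 4 cells held Igkv6-32 at 162, 25, 99 and 25 UMIs, together 69.4% of their light UMIs, and Iglv1 at 28.8%. Igkv10-94 and Igkv10-96 were at 0 in all 4, and Igkv6-32 was at 0 in all 44 cells of library 1. One Ighv4-1 cell of library 1 held Igkv16-104 (72 UMIs) in their place, with Igha as its main constant gene. Joining-segment rows hold no UMIs here and the junction is not read, so a shared pair of segments does not show a shared clone.

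A second heavy row went with Ighv4-1 in library 1. The pseudogene Ighv1-38 was found in 36 of the 44 cells (125 UMIs, at most 11 in a cell). It was found in none of the other 29 plasma cells of library 1, and in none of the 4 Ighv4-1 cells of library 3. In the reference, Ighv1-38 and Ighv4-1 differ by 116 edits over 290 bases. Ighv7-1 was present in 7 of 8 Ighv5-9 cells of library 1 (16 UMIs), in 1 of the 44 Ighv4-1 cells and in 1 of the 21 others. That Ighv4-1 cell also held 17 UMIs of Ighv5-9. The cell among the others led with Ighv5-9 at 8 of 12 heavy UMIs, under the 70% of a call. In library 3, where Ighv5-9 was at 0 UMIs in plasma cells, Ighv7-1 was present in 2 of 27 plasma cells (25 UMIs, at most 16 in a cell). Both of these led with Ighv1-22, at 29 and 33 UMIs.

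The constant genes split the Ighv4-1 cells of library 1 further. Ighm, the constant gene of IgM, was the main heavy constant gene in 43 of 44. Minor UMIs of an IgG gene ran beside the main gene: Ighg1 in 20 cells and Ighg2b in 21. Among the 21 was the Igha cell, which held 3 Ighm UMIs. Only 1 cell held both, 19 held Ighg1 with Ighg2b at 0, 20 held Ighg2b with Ighg1 at 0, and 4 held neither. Ighg1 ran from 23 to 122 UMIs in the 19 cells (median 61.0) and Ighg2b from 27 to 248 in the 20 (median 101.5). The medians per 100 Ighm UMIs were 4.60 and 6.85, with the Igha cell at 966.7. Ighv1-38 was present in 16 of the 19 and 17 of the 20 cells, and median Iglv1 shares of light UMIs were 55.7% and 45.9%, with ranges that overlap. In the 8 Ighv5-9 cells of library 1 and the 4 Ighv4-1 cells of library 3 both IgG genes were at 0, and of the other 21 plasma cells of library 1, 1 held Ighg1 and 4 held Ighg2b. These groups were seen in the data and not tested.

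Smaller groups shared a heavy and a light segment. In library 1, 8 cells were called Ighv5-9 (9 to 30 UMIs, all with Ighm), 4 of them with Iglv1 as leading light row and 3 without a light row of 3 UMIs. The 3 Ighv1-85 cells, with 19, 26 and 26 UMIs, all had Igkv1-135 in the lead at 56, 49 and 61 UMIs. The 2 Ighv1-78 cells paired with Igkv8-21 at 142 and 56 UMIs, and their constant gene was Igha, that of IgA. In library 3, 4 of 5 Ighv1-4 cells paired with Igkv8-24 at 90, 42, 44 and 57 UMIs, and 4 of 4 Ighv1-9 cells with Igkv1-132 at 54, 66, 78 and 16 UMIs. In library 2, which holds 5 plasma cells, 2 Ighv1-82 cells led with Iglv1 and used Ighg2c, and 1 Ighv1-19 cell led with Igkv17-127 (89 UMIs) and used Ighg2b.

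Counted over cells with both a heavy call and a leading light row of at least 3 UMIs, library 1 showed 13 distinct pairs in 64 cells, library 2 showed 3 in 4 and library 3 showed 15 in 24. Pairs seen in at least 2 cells took in 59, 2 and 12 of those cells. Only 1 pair was seen in more than 1 library: Ighv11-2 with Igkv14-126. It appeared in 3 cells of library 1, with 17, 76 and 28 heavy and 76, 53 and 38 light UMIs, and in 1 cell of library 3, with 87 and 93 UMIs. All 4 used Ighm. In these 4 cells Igkv14-126 made up 88.3% to 95% of light variable UMIs, so the pair was close to free of other light rows. Among B cells of library 3, the highest Ighv11-2 count was 41 UMIs, the highest Igkv14-126 count was 12, and 1 cell held both. The other B-1 pair, Ighv12-3 with Igkv4-91, was in 2 cells of library 1, with 4 and 15 heavy and 32 and 164 light UMIs. All of the Igkv4-91 UMIs, 196, were in those 2 cells.

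Heavy segments differed in how many UMIs they gave per constant-region UMI in the same cell. Ighv4-1 gave a median of 6.36 per 100 heavy constant UMIs in library 1 (2.92 to 20.7) and 6.95 in library 3 (1.87 to 8.33). Ighv5-9 gave 1.66 (1.11 to 3.05), Ighv11-2 1.04 (0.975 to 2.37) and Ighv1-85 0.913 (0.779 to 1.63) in library 1. In library 3, Ighv1-9 gave 0.935 (0.407 to 1.40) and Ighv1-4 0.682 (0.407 to 1.13). The Ighv4-1 cells of library 1 thus ranged from just under the highest Ighv5-9 cell upwards, and the Ighv4-1 values of the 2 libraries overlapped. Ighv1-4, with the lowest median of the segments called in at least 2 cells, was called in 5 cells and stayed under 50 UMIs, outside the members.

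**Figure D3:**
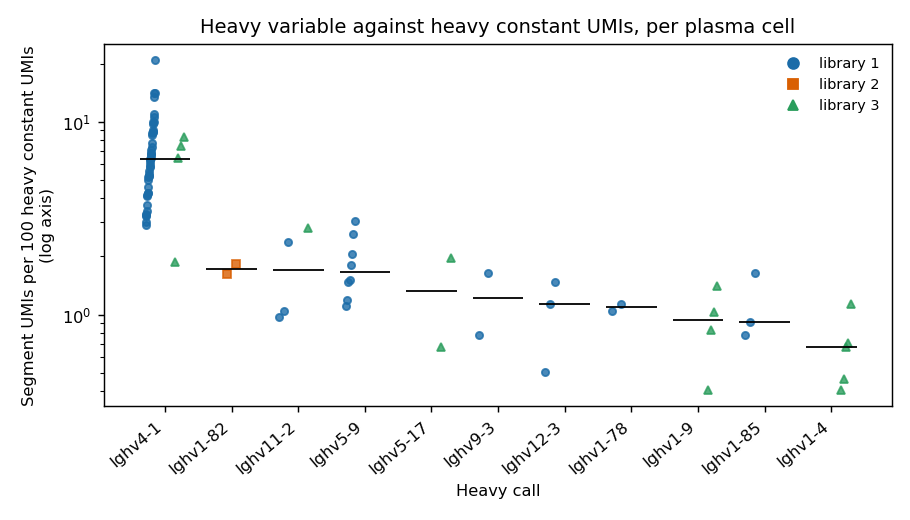
UMIs of the called heavy segment per 100 UMIs of the 8 heavy constant genes (log axis), 1 point per plasma cell, for segments called in at least 2 cells; lines are medians over cells of all libraries. Ighv4-1 lies highest in libraries 1 and 3, and Ighv1-4 lies lowest.

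Iglv1 was the light row found in the most plasma cells, and it did not follow the light constant genes. A UMI of Iglv1 was found in 69 of 73, 5 of 5 and 26 of 27 plasma cells of libraries 1, 2 and 3. At least 5 UMIs were found in 61, 4 and 20 of them. Of these 85 cells, 81 drew more than 90% of their light constant UMIs from Igkc, the kappa constant gene. Iglv1 led the light variable UMIs in 50 plasma cells, of which 46 were above 90% Igkc. By variable rows, 6 of 19 light calls in library 1 (31.6%, 12.6 to 56.6) and 2 of 14 in library 3 (14.3%, 1.78 to 42.8) were lambda. By constant genes, 1 of 72 and 0 of 27 plasma cells were lambda (1.39%, 0.0352 to 7.50, and 0%, which allows up to 11.1%). One cell matched on both sides: it held 29 Iglv1 UMIs, 2947 lambda constant UMIs and 0 of Igkc, beside Ighv9-3.

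Iglv1 summed to 2289, 86 and 718 UMIs against 335264, 25999 and 210842 UMIs of Igkc and 13168, 106 and 4557 of the lambda constant genes. In B cells lambda stood differently: lambda rows made 12.0% and 10.5% of light variable UMIs in libraries 1 and 3, and lambda genes made 24.3% and 22.2% of light constant UMIs. In plasma cells the same shares were 46.6% and 33.2% of variable, and 3.78% and 2.12% of constant UMIs. The lambda share of summed UMIs was thus higher in variable than in constant UMIs in plasma cells, and lower in B cells, in both libraries. Counted per cell by constant genes, 25 of 534 (4.68%) and 15 of 383 (3.92%) called B cells were lambda. Of 11 light calls in B cells of each library, 0 were lambda. Iglc2, a lambda constant gene, gave a UMI in 680 of 733 and 522 of 579 B cells. Iglv3, the other lambda member, was in 36 and 15 plasma cells of libraries 1 and 3, at 7 UMIs or fewer in a cell.

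**Figure D4:**
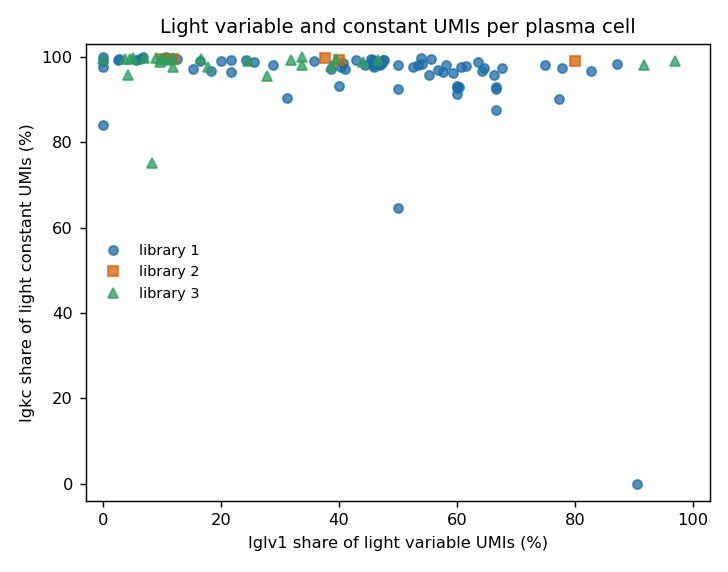
Share of Iglv1 in the light variable UMIs (x axis, %) and of Igkc in the light constant UMIs (y axis, %) of each plasma cell, by library. Most cells lie above 90% Igkc at any Iglv1 share, and 1 cell of library 1 lies at 0% Igkc.

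Heavy constant genes were read in cells where 1 gene had at least 3 UMIs and 50% of the total. Ighm led in 65 of 73 plasma cells of library 1 (89.0%, 79.5 to 95.2) and in 21 of 27 of library 3 (77.8%, 57.7 to 91.4). Without the Ighv4-1 cells the library 1 share was 75.9% of 29. Igha led in 8 and 3 plasma cells. In library 2 Ighm was at 0 UMIs in all 5 plasma cells, 4 of which led with Ighg2c and 1 with Ighg2b. In B cells Ighm led in 649 of 685 (94.7%) and 520 of 537 (96.8%) cells of libraries 1 and 3. Ighd, which marks mature B cells that have not switched, led in 31 and 11 cells, and stood at 260.7 CPM in B cells and 3.65 CPM in plasma cells of library 1, and at 201.7 and 1.43 CPM in library 3.

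B cells used many segments at low counts. In library 1, 75 heavy and 62 light rows were detected in 733 B cells, against 22 and 26 rows in 73 plasma cells. In library 3, 63 heavy and 56 light rows were detected in 579 B cells, against 17 and 30 in 27 plasma cells. A heavy UMI was found in 224 of 733 (30.6%) and 162 of 579 (28.0%) B cells, and 13 and 8 of them held more than 1 heavy row. A call needs 3 UMIs and was reached by only 8 heavy and 11 light B cells in library 1, and by 11 and 11 in library 3. Shares of called cells were therefore not given for B cells, and use is described by cells with a UMI.

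By heavy family, Ighv1 was found in 93 of 224 heavy-positive B cells of library 1 (41.5%, 35.0 to 48.3) and in 79 of 162 of library 3 (48.8%, 40.9 to 56.7). Ighv2 followed with 33 (14.7%) and 17 (10.5%) cells, and Ighv5 with 28 (12.5%) and 20 (12.3%). Among light families, Igkv1 was found in 59 of 230 (25.7%) and 52 of 173 (30.1%) light-positive cells, and Igkv12 in 40 (17.4%) and 33 (19.1%). Intervals of the 2 libraries overlap for each of these families, which is no test of equal use. Ighv4, the family that made up 87.1% of heavy UMIs in plasma cells of library 1, was in 5 and 3 B cells.

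Of single members in B cells, Iglv3 was found in 22 of 733 cells of library 1 (3.001%, 1.89 to 4.51) and 15 of 579 of library 3 (2.59%, 1.46 to 4.24). Igkv12-46 was found in 19 (2.59%) and 17 (2.94%), and Igkv1-117 in 17 (2.32%) and 18 (3.11%). Ighv9-3, found in 15 (2.05%) and 9 (1.55%), was the heavy member found in the largest number of B cells. Over the 31 members the order was alike in both libraries, with a Spearman rho of 0.77 across members, a description of rows that share libraries and depth. The intervals overlapped for 31 of 31 members. They are wide, since no member was found in more than 22 B cells of either library, so nothing is read from the overlap. Igkv12-44 had the most light calls, 4 cells in library 1, 1 in library 2 and 1 in library 3, and 1 B cell of library 2 held 14 of its 56 UMIs.

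**Figure D5:**
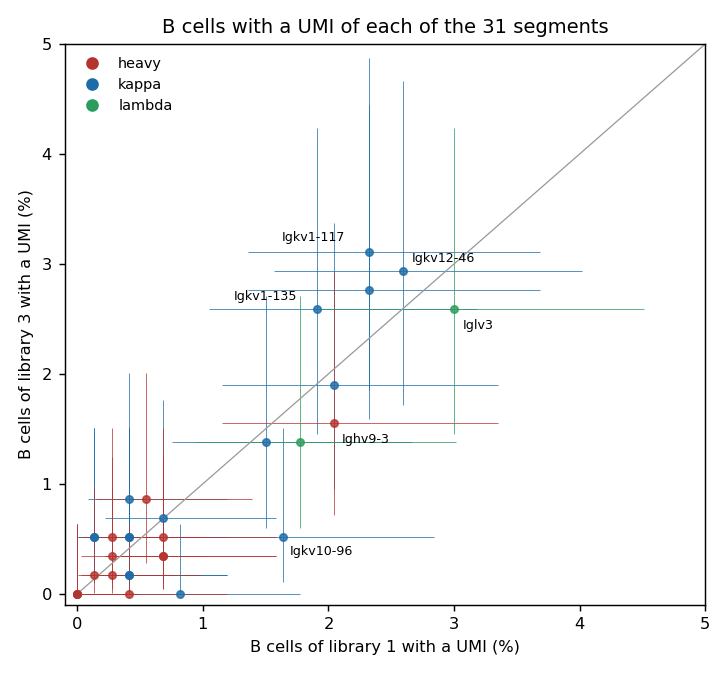
Share of B cells with a UMI of each of the 31 members (1 point each, coloured by chain) in library 1 (x axis, %) and library 3 (y axis, %), with exact binomial 95% intervals; the line marks equal shares. Points run from 0% to 3.001% and 3.109%. Every member's pair of intervals overlaps, but the intervals are wide and nothing is read from this.

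Segments with more than 50% of their UMIs in plasma cells, 29 of the 31 members, differed in how many B cells held them. The median over all members was 0.546% of B cells in library 1 and 0.518% in library 3. Ighv4-1 was found in 5 of 733 B cells of library 1 (0.682%) and in 27 of 3320 other cells (0.813%), at median depths of 4384 and 13400 UMIs. In library 3 it was found in 3 of 579 B cells (0.518%, 0.107 to 1.51) and in 1 of 3400 other cells (0.0294%). Each of these B cells held 1 UMI of it. Median depths in library 3 were 5070 and 14458 UMIs. In library 1, Ighv4-1 gave 5 of 6612882 UMIs in B cells and 46 of 74139459 in other cells. Since the classes differ in depth, the order of their shares is not read as a result. Iglv1 was found in 1.77% of B cells and 0.211% of other cells of library 1, and in 1.38% and 0.118% of library 3. Igkv10-96 was found in 1.64% and 0.12%, and in 0.518% and 0.0882%. Ighv5-9, Ighv1-38 and Igkv4-91 were at 0 in B cells of libraries 1 and 3, which allows up to 0.409% and 0.518% of cells with a UMI. Their UMIs were in plasma cells alone, apart from 2 Ighv1-38 UMIs in other cells of library 1.

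Other cells, with Cd79a under 2 and Jchain under 20, served as the background class, although some barcodes in it held Jchain UMIs. They held 0.890 (0.689 to 1.13), 0.0285 (0.00925 to 0.0665) and 0.230 (0.137 to 0.364) CPM of member UMIs in libraries 1, 2 and 3, and 0 in library 4, which allows up to 0.0274 CPM. Endocrine cells, with at least 10% of UMIs from 6 hormone genes, held 0.406, 0.0234, 0.0933 and 0 CPM. A member UMI was found in 37 of 3320 (1.11%), 5 of 7401 (0.0676%), 16 of 3400 (0.471%) and 0 of 4332 other cells. Library 4 has no plasma cell, and library 1, with the highest level, has the most plasma cells and the most B cells (73 and 733).

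The leading rows in other cells all had UMIs in plasma cells of the same library. They had UMIs in its B cells too, except Ighv1-38 in library 1 and Ighv1-19 and Igkv6-15 in library 2. Since plasma cells held 95.7% of all member UMIs, nothing is read from this, and the source of the UMIs was not tested. In library 1, Ighv4-1 gave 46 of 70 variable UMIs in other cells (65.7%) and 10 of 16 in endocrine cells, against 46.4% in plasma cells and 0.787% in B cells. Of the 46, 24 were in 5 barcodes of 722 to 2067 UMIs that also held 4 to 13 Jchain UMIs, and 22 barcodes held 1 each. Iglv1 followed with 7 UMIs, Igkv10-96 with 4, and Ighv1-38 and Ighv11-2 with 2 each. In library 2, Ighv1-19, the row of 1 plasma cell, led with 4 of 14, and Igkv6-15, Igkv6-23 and Iglv1 had 2 each and Ighv1-80 had 1. In library 3, Iglv1 led with 4 of 24, followed by Igkv10-96 with 3.

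Genes that act on the segments, and genes of the B and plasma cell lists, were compared between plasma and B cells, with no test. Of 3 octamer factors, which act on variable-segment promoters, 1 was more than 2-fold higher and 1 lower in each library, against 5.72% and 3.0% of genes higher. The coactivator Pou2af1 stood at 67.4 CPM in B cells and 297.4 CPM in plasma cells of library 1, and at 60.1 and 282.4 CPM in library 3. Pou2f2 stood at 251.9 and 57.0 CPM in library 1, and at 237.7 and 75.6 CPM in library 3. Vpreb3, a gene of B cell development, was lower in plasma cells in both libraries (137.0 CPM in B cells and 31.5 CPM in plasma cells of library 1, 111.5 and 47.1 CPM in library 3). The recombinase genes Rag1 and Rag2 had 0 UMIs in B and plasma cells, except 1 UMI of Rag1 in B cells of library 3. The B cell membrane gene Ms4a1 stood at 714.5 CPM in B cells and 48.4 CPM in plasma cells of library 1, and at 413.4 and 74.2 CPM in library 3. It was more than 2-fold lower in plasma cells in both, as were 15.3% and 22.1% of all genes compared. In the plasma list 9 of 9 and 7 of 8 were higher, and its gene Xbp1 stood at 44.2 CPM in B cells and 917.4 CPM in plasma cells of library 1, and at 47.1 and 683.2 CPM in library 3.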

How the data were processed

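Islet cells of 4 mice were measured by 10x single-cell RNA-seq. The deposited UMI counts are whole numbers per gene and barcode, per the file headers, and the authors used Cell Ranger 6.1.2 and mm10, per the submitters' processing notes. Neither source names the annotation. All 19987 barcodes of the pooled matrix entered, 4 libraries with 82963911 to 178396311 UMIs, which no label ties to a sample.

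Cells were classed by Cd79a, Jchain and Mzb1, and segments were called per cell (at least 3 UMIs and 70% of the chain's UMIs). Exact intervals and ratios with 10 CPM added were computed in Python 3.11.15 (numpy 2.4.6, scipy 1.17.1, pandas 2.3.3), with figures in matplotlib 3.10.9 and edit distances in edlib 1.3.9.post1. The computations were tested on simulated data. Shares of called B cells were planned only for libraries with 50 called cells, which none reached. Motif searches before and after the segments were not run, since no genome sequence or promoter of these genes was used here. No doublet caller was run. Alternatives changed the minimum counts, class cut-offs, call rule, pseudocount, filters and totals.

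The members and lists were chosen with earlier results of these data known. Named segments were the 8 heavy and 8 light with most called B cells, those called in at least 3 plasma cells of a library, the 5 with most UMIs in other cells of each library, those next to the minimum, and marker genes with at least 50 UMIs. Other segments and partner rows, among them Igkv10-94, Igkv10-96, Ighv1-38, Ighv7-1, Igkv6-32 and Igkv4-91, were named after their values were seen. Values of some listed genes are not reported here.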

Additional observations from a re-analysis of the deposited data

How the results depend on the processing

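No paired analysis was possible because the labels give no replicate numbers and no library is tied to a sample. Of 135 alternative values for 34 results, 106 stayed within the spread used for that result and 29 moved. Members numbered 54 at a minimum of 20 UMIs, and 19 to 31 with 1 library left out (19 without library 1 and 19 without library 3). With Cd79a at 4 UMIs or more, B cells numbered 36 in library 2 and 2 in library 4. Without cells with Cd3 or hormone UMIs they numbered 28 and 1. At 10 UMIs a call was made in 0 heavy and 1 light B cells of library 1 and in 1 and 1 of library 3. At 1 UMI, a rule added after seeing the data, the counts were 211 and 191, and 157 and 140. Further alternatives added after seeing the data were these. Light constant genes in place of variable rows moved the lambda share of plasma cells to 1.39% and 0% in libraries 1 and 3. Igkv rows alone gave 31 light-called plasma cells in library 1. Without Ighv4-1 cells, Ighm led in 75.9% of library 1 plasma cells, and 11 of 11 tested members were higher than in B cells, against 4.69% of genes. The rule drew on these same UMIs, so nothing is read from that count either.

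In other cells of library 1, the members stood at 0.494 CPM with Cd79a at 0 and Jchain under 5, 0.406 in endocrine cells, 0.388 without barcodes with Jchain UMIs and 0.359 without barcodes under 5000 UMIs. The last setting gave 0.00581 in library 2, and endocrine cells gave 0.0933 in library 3. Thinned to 2000 UMIs, other cells with a member UMI made up 0.389%, 0.0186% and 0.0357% in libraries 1, 2 and 3, on 11, 1 and 1 cells. The cause of these shifts was not tested. Calls in B cells rest on few UMIs: a median B cell of libraries 1 and 3 held 4384 and 5070 UMIs and no member UMI.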

Other observations

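Plasma cells of library 1 with and without an Ighv4-1 call had like depths, with medians of 28079 and 25020 UMIs. Mki67, a gene of dividing cells, gave a UMI in 41 of 44 and 16 of 29 of them (372.7 and 235.7 CPM), and in 13 of 27 plasma cells of library 3. Of genes for secretion, Edem1, which helps clear misfolded proteins from the endoplasmic reticulum, stood at 1432 and 692.3 CPM in the 2 groups, Fkbp11 at 598.6 and 323.3 CPM, and Xbp1 at 1042 and 705.8 CPM. Prdm1, the regulator that ends the B cell programme, stood at 32.6 and 91.3 CPM, and the B cell surface gene Ms4a1 at 23.2 and 91.3 CPM. Neither list went 1 way throughout. In the B cell list Cd79b stood at 256.9 and 195.0 CPM. In the plasma list Sdc1 stood at 164.3 and 159.2 CPM, and Tnfrsf17 at 30.4 and 45.7 CPM. These cells come from 1 library, so the differences have no replicate check and were not tested.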
